A study of Homo sapiens with 13 samples.

Results

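The integrin genes of differentiating human embryonic stem cells were examined together with the cytoplasmic proteins that bind integrin tails. The list held 34 genes: 26 alpha and beta subunits, 3 kindlins, 2 talins and the adaptors ILK, PXN and VCL. All 34 had probes on the Illumina bead arrays, 58 probes among the 47230 used, chosen by gene symbol. The cells were the RUNX1C GFP/w reporter line, made from the established human line HES3, and all 13 arrays came from it. Undifferentiated cells had been kept on mouse feeder cells with FGF2 and then aggregated as spin embryoid bodies in APEL medium. The medium held BMP4, VEGF, SCF and Activin until day 4, when FGF2 and IGF2 took the place of Activin. There was 1 array for unsorted cells on each day from 0 (undifferentiated) to 8, which is 9 arrays, and 1 array for each of 4 fractions sorted on day 7 by surface CD34 and CD41. These fractions were CD34lo CD41lo, CD34hi CD41-, CD34lo CD41- and CD34- CD41-. CD41 is the protein of ITGA2B, so that gene's level in the fractions describes the sort.

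Integrins are adhesion receptors made of 1 alpha and 1 beta chain. The alpha chain largely sets which matrix protein is bound: fibronectin and other proteins carrying the RGD motif, laminin, collagen, or counter-receptors on other cells. Talin and kindlin bind the beta chain's tail and switch the receptor to its active state, and ILK, paxillin (PXN) and vinculin (VCL) link it to the actin cytoskeleton. In blood, alphaIIb-beta3 (ITGA2B with ITGB3) is the fibrinogen receptor of platelets, beta2 integrins serve leukocytes, and FERMT3 encodes the kindlin of blood cells.

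Levels are normalized log2 intensities, and a level is comparable between arrays for a given gene but not between genes. A probe counted as detected with a detection p below 0.01, and the detection floor, the lowest level of a detected probe, lay between 5.29 and 5.73 on the 13 arrays. Between 15134 and 17833 probes were detected per array. With 1 array per day and per fraction no level has an SD, and errors on changes over days come from the departure of single days from a smooth curve. All 4 markers of undifferentiated cells were detected on day 0 and only POU5F1 of them on day 8. The level of CD34 was 10.06 in CD34lo CD41lo cells, 12.88 in CD34hi CD41- cells, 10.58 in CD34lo CD41- cells and 8.52 in CD34- CD41- cells. In this mixed material fewer cells of a type and less RNA per cell cannot be told apart.

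Over the 9 days the integrin genes moved in different directions. In the fitted curves the fibronectin receptor chain ITGA5, the nephronectin receptor chain ITGA8 and talin 2 (TLN2) rose between days 0 and 4. The laminin receptor chains ITGA3 and ITGA6, FERMT1 and VCL fell in the same interval. ITGA3 and ITGA6 rose again between days 4 and 8. By day 8 FERMT3 and ITGB2, genes of blood cell integrin function, were above their day 0 levels, and ITGB5 was below. Of the 34 members 8 were not detected on any day, namely ITGB3, ITGB6, ITGB8, ITGB7, ITGAD, ITGAL, ITGAM and ITGAX, and were not tested. A gene had a trend when the moderated F test of its curve had an adjusted p below 0.05, and it was called changed in an interval where the curve differed by 2-fold or more (1 on the log2 scale) and the adjusted p of that difference was below 0.05. A trend was found for 14 of the 26 tested members, against 38.8% of all 17657 genes tested. From day 0 to 4, 4 members rose, against 6.28% of all genes, and 6 fell, against 5.92%. Between days 4 and 8, 2 members rose and 1 fell, against 4.94% and 2.64% of all genes. From day 0 to 8, 5 members rose and 4 fell, against 11.8% and 10.2% of all genes. The median fitted change of the tested members was -0.14 from day 0 to 4, 0.20 from day 4 to 8 and 0.09 from day 0 to 8. Over all genes it was 0.00, -0.04 and -0.04 for the same intervals. The counts from day 4 to 8 rested on single days. Without day 2 the fit called 4 members higher and 0 lower, beside 897 and 492 of all 17657 genes. Without any one of days 3 to 7 it called 0 lower, beside 288 to 392 of all genes. Without day 3 only 1 member was called higher from day 0 to 4, beside 856 of all genes.

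**Figure D1:**
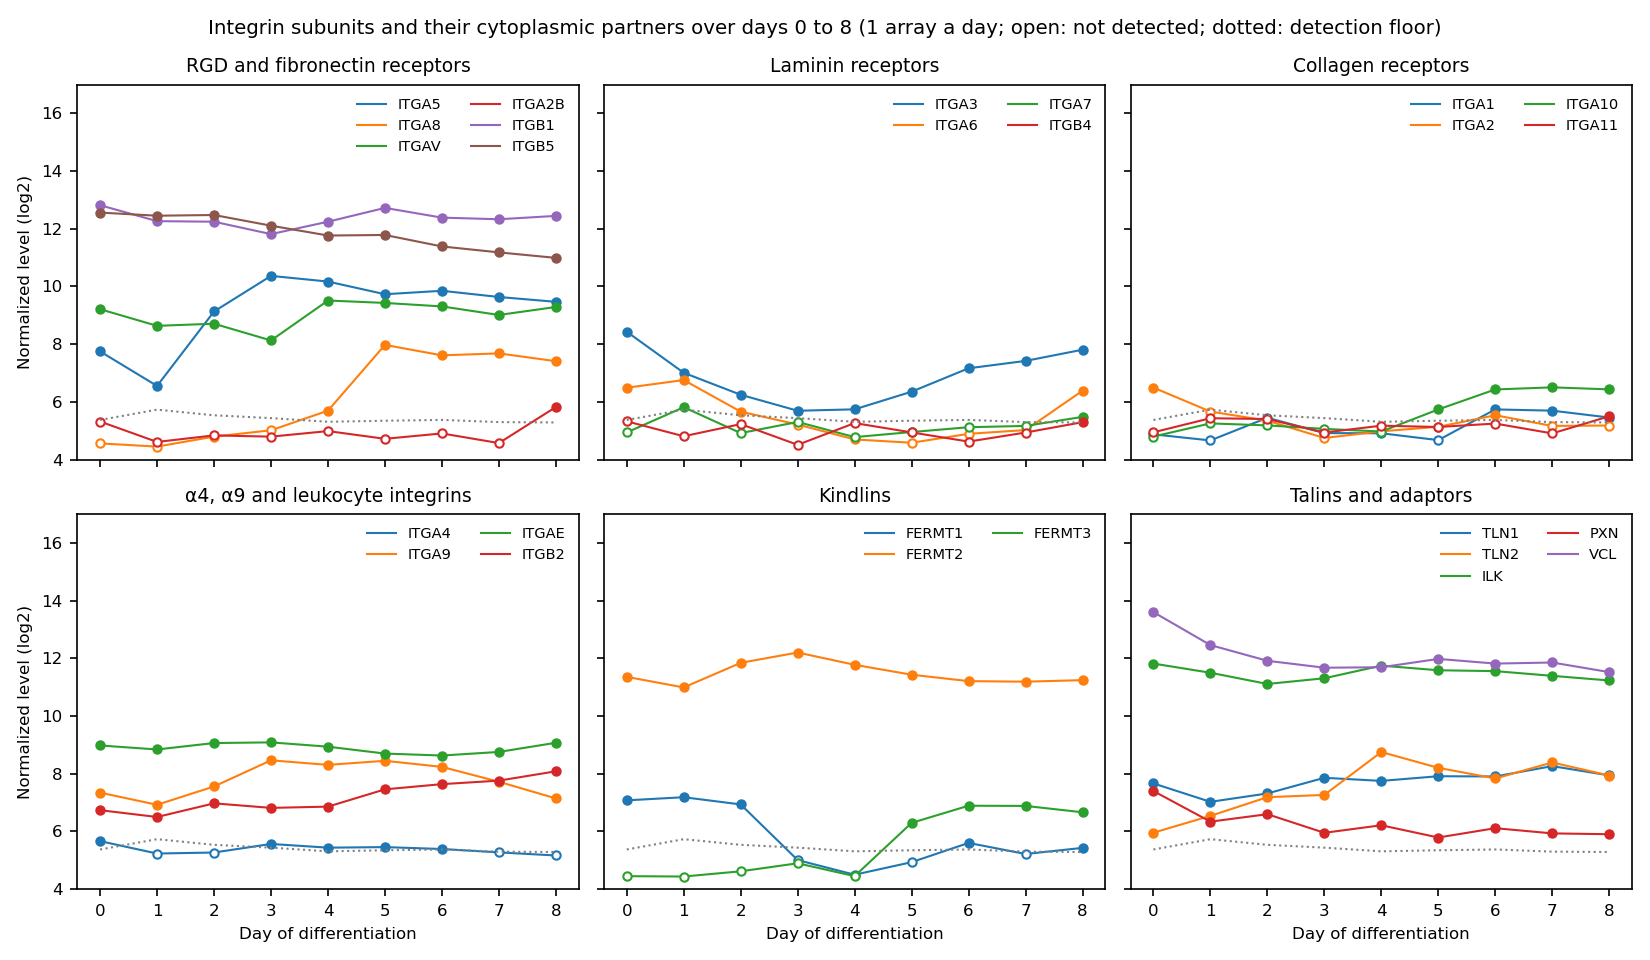
Normalized log2 level (vertical axis) of the 26 members detected on at least 1 day, by day of differentiation (horizontal axis), 1 array a day. Filled points were detected and open points were not; the dotted line is the detection floor. ITGA5 lies between 9.47 and 10.37 from day 3 on, ITGA8 is detected from day 4 and FERMT3 from day 5, and ITGA3 dips to 5.69 on day 3.

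Among the receptors for RGD proteins and fibronectin, ITGA5, which pairs with ITGB1 as the main fibronectin receptor, stood at 7.75, 6.55, 9.13, 10.37, 10.17, 9.73, 9.85, 9.63 and 9.47 on days 0 to 8. It was lowest on day 1 and highest on day 3, and every day from day 2 on lay above days 0 and 1. The fitted rise from day 0 to 4 was 3.07 ± 0.72 on the log2 scale (SE, limma adjusted p = 0.0217), and it missed the threshold without day 3 (2.64, adjusted p = 0.0643) and without day 4 (2.94, adjusted p = 0.0551). The fitted change of ITGA5 from day 0 to 8 was 2.47 ± 0.84 with an adjusted p of 0.0577. ITGA8, whose protein with beta1 binds nephronectin, stood at 4.56, 4.45, 4.80 and 5.01 on days 0 to 3, all below detection, and at 5.69, 7.97, 7.61, 7.68 and 7.41 on days 4 to 8. Its 5 later days were all detected and did not overlap the first 4. The fitted rise from day 0 to 8 was 2.71 ± 0.45 (adjusted p = 0.00295), and the day 8 array was at least 4.10-fold above the floor of the day 0 array. The fitted rise of ITGA8 from day 0 to 4 was 1.59 ± 0.39 (adjusted p = 0.0262). It missed the threshold without day 1, day 3 or day 7, with adjusted p between 0.0503 and 0.0606. The arrays bound this rise only at 1.25-fold or more on day 4 against day 0. The larger step was from 5.69 on day 4 to 7.97 on day 5.

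ITGB5, the beta chain of the vitronectin receptor alphaV-beta5, stood at 12.56, 12.45, 12.48, 12.11, 11.76, 11.78, 11.39, 11.18 and 10.99 on days 0 to 8. Days 6 to 8 were the 3 lowest, and the fitted change from day 0 to 8 was -1.59 ± 0.23 (SE, adjusted p = 0.00147). ITGB5 was measured by 3 detected probes, and all 3 fell, with changes between -1.59 and -2.73. ITGB1 is the beta chain shared by the largest group of integrins, and its brightest probe lay between 11.81 and 12.82 with no trend (adjusted p = 0.15). Its other probes did not all give this answer: 1 probe changed by -0.86 from day 0 to 8 (adjusted p = 0.0471), short of 2-fold, and a dim one detected on 2 days changed by -1.91 (adjusted p = 0.0174), past 2-fold. ITGAV, an alpha chain that joins several beta chains, lay between 8.13 on day 3 and 9.51 on day 4, with no trend (adjusted p = 0.195). ITGA2B was detected on day 8 alone, at 5.82, and its trend had an adjusted p of 0.338.

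Among the 4 laminin receptor chains ITGA3 and ITGA6 fell and then rose. ITGA3, which forms a laminin receptor with beta1, stood at 8.43, 7.01, 6.25, 5.69, 5.74, 6.35, 7.16, 7.42 and 7.81 on days 0 to 8. It was detected on every day, with its minimum on day 3. The fit gave a change of -2.53 ± 0.21 from day 0 to 4 (SE, adjusted p = 0.000247) and of 1.96 ± 0.21 from day 4 to 8 (adjusted p = 0.000877). Between days 0 and 8 it was -0.57 ± 0.24 (adjusted p = 0.115). ITGA6, a laminin receptor chain used as a surface marker of many stem cells, stood at 6.49, 6.76 and 5.66 on days 0 to 2 and at 6.39 on day 8, and it was not detected on days 3 to 7, where it read 5.21, 4.70, 4.58, 4.89 and 5.02. Its fitted change was -1.95 ± 0.31 from day 0 to 4 (adjusted p = 0.00446) and 1.48 ± 0.31 from day 4 to 8 (adjusted p = 0.0207). On the arrays ITGA6 was at least 2.27-fold lower on day 4 than on day 0 and at least 2.11-fold higher on day 8 than on day 4. The later rise rests on day 8 alone among the detected days, and without day 5 its adjusted p was 0.0506. ITGA6 had 3 probes, and the others were not detected on any day. ITGA7, the laminin receptor chain of muscle, was detected on days 1 and 8 (5.81 and 5.48), and ITGB4, the partner of ITGA6 in epithelia, on day 8 alone (5.30). Neither had a trend. The summed linear level of the epithelium markers EPCAM and CDH1 was 9217 on day 0, 3092 on day 3, 3564 on day 4 and 5810 on day 8, and its part in the course of ITGA3 and ITGA6 was not tested.

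Among the 4 collagen receptor chains ITGA2 fell and ITGA10 rose. ITGA2, the alpha chain of the main platelet collagen receptor, was detected at 6.49 on day 0 and at 5.53 on day 6, and it read between 4.75 and 5.66 on the 7 days without detection. The fitted change was -1.51 ± 0.22 from day 0 to 4 (SE, adjusted p = 0.00291) and -1.34 ± 0.26 from day 0 to 8 (adjusted p = 0.00544), and the arrays bound the fall at 2.31-fold or more on day 8 against day 0. ITGA10, a collagen receptor chain known from cartilage, was below detection on days 0 to 4, at 4.80, 5.25, 5.18, 5.06 and 4.97, and stood at 5.74, 6.43, 6.5 and 6.43 on days 5 to 8. Its fitted rise from day 0 to 8 was 1.57 ± 0.38 (adjusted p = 0.0156), and the day 8 array was at least 2.08-fold above day 0. ITGA1 was detected on days 6 to 8 (5.74, 5.69 and 5.46) and ITGA11 on day 8 (5.50), both near the floor and without a trend.

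ITGA9, a receptor chain for tenascin and VCAM1, rose and then fell. It stood at 7.34, 6.92, 7.56, 8.46, 8.31, 8.45, 8.24, 7.72 and 7.14 on days 0 to 8, with the 4 highest levels on days 3 to 6. The fitted change was 1.29 ± 0.31 from day 0 to 4 (SE, adjusted p = 0.025) and -1.26 ± 0.31 from day 4 to 8 (adjusted p = 0.0394). Without day 3 the rise was 1.02 with an adjusted p of 0.0634, and without any one of days 2 to 7 the fall had an adjusted p between 0.0503 and 0.0878. ITGB2, the common beta chain of the leukocyte integrins, stood at 6.74, 6.5, 6.97, 6.81, 6.86, 7.46, 7.64, 7.76 and 8.08 on days 0 to 8. Days 5 to 8 all lay above days 0 to 4, and the fitted rise from day 0 to 8 was 1.37 ± 0.27 (adjusted p = 0.00618). A further ITGB2 probe rose by 1.5 (adjusted p = 0.0348). From day 4 to 8 the fitted change of ITGB2 was 1.0 ± 0.23 (adjusted p = 0.0294), and it was not called because it fell just short of 2-fold. The alpha chains that pair with ITGB2 (ITGAD, ITGAL, ITGAM and ITGAX) and ITGB7, a partner of ITGA4 and ITGAE, were not detected on any day. ITGA4, the alpha chain of the VCAM1 and fibronectin receptor of blood cells, was detected on 5 days and lay between 5.16 and 5.66. ITGAE, known from lymphocytes within epithelia, was detected throughout between 8.63 and 9.09. Neither had a trend. PTPRC and MPO, defining markers of leukocytes, were not detected on any day, while SPN and AIF1 of the same list were detected on all 9 days. Of the 6 leukocyte and myeloid markers detected on any day, LAPTM5 (2.33), SPN (1.71) and LYZ (1.13) rose between days 0 and 8 and CORO1A fell (-1.48), beside 11.8% and 10.2% of all genes. Their summed level was 670 on day 8, against 363 on day 0, and their part in the rise of ITGB2 was not tested.

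The 3 kindlins followed different courses. FERMT1, the kindlin of epithelial cells, stood at 7.08, 7.18 and 6.93 on days 0 to 2, was not detected on days 3 to 5 (5.01, 4.5 and 4.93) or on day 7 (5.22), and read 5.60 on day 6 and 5.43 on day 8. The first 3 days lay above all later ones. Its fitted change from day 0 to 4 was -2.36 ± 0.57 (SE, adjusted p = 0.0246), and the threshold was missed without day 3, day 4 or day 5 (-2.01 to -2.34, adjusted p between 0.0507 and 0.0732). FERMT3 was not detected on days 0 to 4, at 4.45, 4.44, 4.62, 4.89 and 4.45, and stood at 6.30, 6.89, 6.88 and 6.66 on days 5 to 8. The fitted rise from day 0 to 8 was 2.23 ± 0.51 (adjusted p = 0.0119), and the day 8 array was at least 2.44-fold above day 0. The further FERMT3 probe, detected on 1 day, changed by 0.90 (adjusted p = 0.0418), short of 2-fold. FERMT2, the most widely expressed kindlin, was detected on every day between 10.99 and 12.20, with no trend (adjusted p = 0.131). The summed level of the 8 endothelium markers was 840 on day 4 and 3607 on day 5, the day on which FERMT3 and ITGA10 were first detected, and its part in their rise was not tested. That of the 7 red cell markers was 374 on day 4, 488 on day 5 and 32728 on day 8.

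TLN2, the talin known from muscle and brain, stood at 5.95, 6.54, 7.19, 7.26, 8.75, 8.20, 7.83, 8.39 and 7.94 on days 0 to 8. All days from 4 on lay above all earlier ones, and the fitted rise was 2.16 ± 0.40 from day 0 to 4 (SE, adjusted p = 0.00791) and 2.04 ± 0.46 from day 0 to 8 (adjusted p = 0.0118). TLN1, the talin of most cells, lay between 7.02 on day 1 and 8.26 on day 7 with no trend (adjusted p = 0.122). VCL stood at 13.60, 12.46, 11.91, 11.67, 11.69, 11.98, 11.82, 11.85 and 11.52 on days 0 to 8. Most of its difference lay between days 0 and 2, and the fitted change was -1.82 ± 0.20 from day 0 to 4 (adjusted p = 0.000854) and -1.99 ± 0.23 from day 0 to 8 (adjusted p = 0.000526). A dimmer VCL probe changed by -2.87 from day 0 to 8. PXN stood at 7.40, 6.34, 6.60, 5.95, 6.21, 5.79, 6.11, 5.93 and 5.90 on the same days, highest on day 0. Its fitted change was -1.22 ± 0.29 from day 0 to 4 (adjusted p = 0.0222), lost without day 3 (-1.15, adjusted p = 0.0674), and -1.33 ± 0.34 from day 0 to 8 (adjusted p = 0.0192). ILK lay between 11.11 and 11.82 with no trend (adjusted p = 0.198). The summed level of the 6 mesenchyme markers was 11015 on day 0, 1378 on day 2 and 33161 on day 8. Only COL1A1 and TAGLN of them were detected on day 0. TAGLN stood at 13.32 on day 0, 9.58 on day 2 and 9.75 on day 8. From day 0 to 8, 5 of the 6 markers rose and TAGLN fell, beside 11.8% and 10.2% of all genes. The part of these markers in the falls of VCL and PXN was not tested. Day 0 cells came from culture on feeder cells and later days from embryoid bodies. Culture and day thus changed together, and for the falls from day 0 they cannot be told apart.

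**Figure D2:**
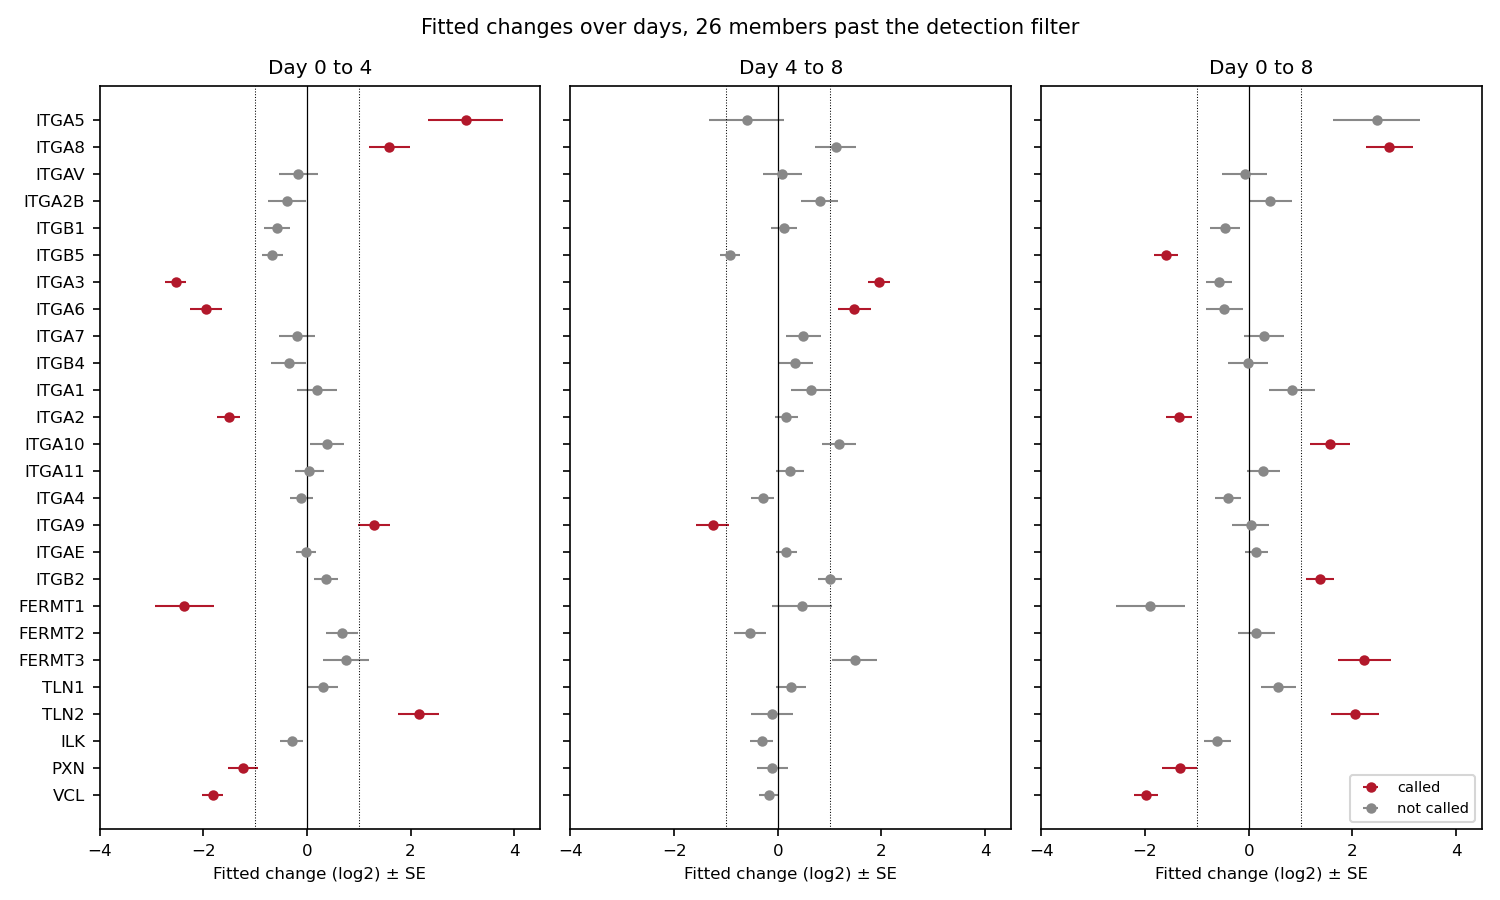
Fitted log2 change (horizontal axis, points with SE bars) of the 26 tested members from day 0 to 4, 4 to 8 and 0 to 8. Red members passed an adjusted p below 0.05 and a 2-fold change (dotted lines), and grey ones did not. ITGA3 and ITGA6 lie left of zero from day 0 to 4 and right of it from day 4 to 8.

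Other genes of integrin adhesions and the ligands of integrins were counted from lists of 32 and 30 genes. From day 0 to 8, 7 of 29 tested adhesion genes rose and 7 fell, against 11.8% and 10.2% of all genes, with a median change of 0.58 beside -0.04 over all genes. The largest rises were those of the parvin PARVA (2.03 ± 0.37, SE, adjusted p = 0.00415), the kinase SRC (1.86 ± 0.53, adjusted p = 0.0309) and RAP1GAP, which turns off the Rap1 GTPase (1.78 ± 0.41, adjusted p = 0.0124). The largest falls were those of caveolin 1, CAV1 (-4.93 ± 0.83, adjusted p = 0.00302), the LIM protein FHL2 (-3.05 ± 0.32, adjusted p = 0.000313) and RSU1, a component of the ILK complex (-2.49 ± 0.24, adjusted p = 0.00021). From day 0 to 4, 2 rose and 6 fell, against 6.28% and 5.92% of all genes. From day 4 to 8, 2 rose (LIMS1 and CD47) and 2 fell (FHL2 and ACTN1), against 4.94% and 2.64%.

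Of 27 tested ligand genes 17 rose and 2 fell from day 0 to 8, against 11.8% and 10.2% of all genes, with a median change of 2.22 beside -0.04 over all genes. Between days 4 and 8, 14 rose and 0 fell, against 4.94% and 2.64%. Between days 0 and 4, 7 rose and 3 fell, against 6.28% and 5.92%. The 3 chains of fibrinogen, a ligand of alphaIIb-beta3, had the largest rises from day 0 to 8: FGB by 7.89 ± 0.99 (SE), FGA by 7.27 ± 0.40 and FGG by 6.84 ± 0.38, each undetected on day 0. The 2 that fell were osteopontin, SPP1 (-6.14 ± 0.39), and thrombospondin 1, THBS1 (-2.46 ± 0.67). The summed level of the 5 endoderm markers (TTR, APOA1, AFP, FOXA2 and SERPINA1) was 46655 on day 8, against 1718 on day 0, and its part in the fibrinogen values was not tested.

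In the day 7 fractions the CD34lo CD41lo cells had the highest levels of ITGA2B, ITGB3, FERMT3 and ITGB2, and the lowest levels of ITGB5, ITGA3, ITGA5, ITGAV and FERMT2. CD34hi CD41- cells had the highest levels of ITGA9, ITGA10 and ITGA5. CD34- CD41- cells had the highest levels of TLN2, ITGA3 and ITGB5. With 1 array per fraction there is no replicate check and no p-value. Differences are between single arrays, counted at 2-fold, and written as at least a fold where the dimmer array did not detect the gene and its floor was used. Of the 34 members 26 were detected in at least 1 fraction, and ITGB6, ITGB8, ITGB4, FERMT1, ITGAD, ITGAL, ITGAM and ITGAX in none.

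CD34lo CD41lo cells set against CD34lo CD41- cells, which differ in the CD41 gate, had 3 members higher, against 2.68% of all 15891 genes, and 8 lower, against 5.68%. Against CD34hi CD41- cells they had 3 higher and 8 lower, beside 5.17% and 6.95% of all genes. Against CD34- CD41- cells they had 6 higher and 5 lower, beside 8.26% and 11.1%. ITGA2B, whose protein CD41 was sorted on, is counted among the higher members in each of these pairs, and its call follows the gate. CD34hi CD41- cells had 3 members higher and 1 lower than CD34lo CD41- cells, beside 3.98% and 4% of all genes, and 5 higher and 3 lower than CD34- CD41- cells, beside 7% and 8.9%. CD34lo CD41- cells had 3 higher and 1 lower than CD34- CD41- cells, beside 2.64% and 4.23%. These pairs share arrays, so their counts are not separate evidence. Over the members detected in both fractions the median difference was -0.33 for CD34lo CD41lo over CD34lo CD41- and -0.55 for CD34lo CD41lo over CD34hi CD41-, and over all genes it was 0.07 for both.

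**Figure D3:**
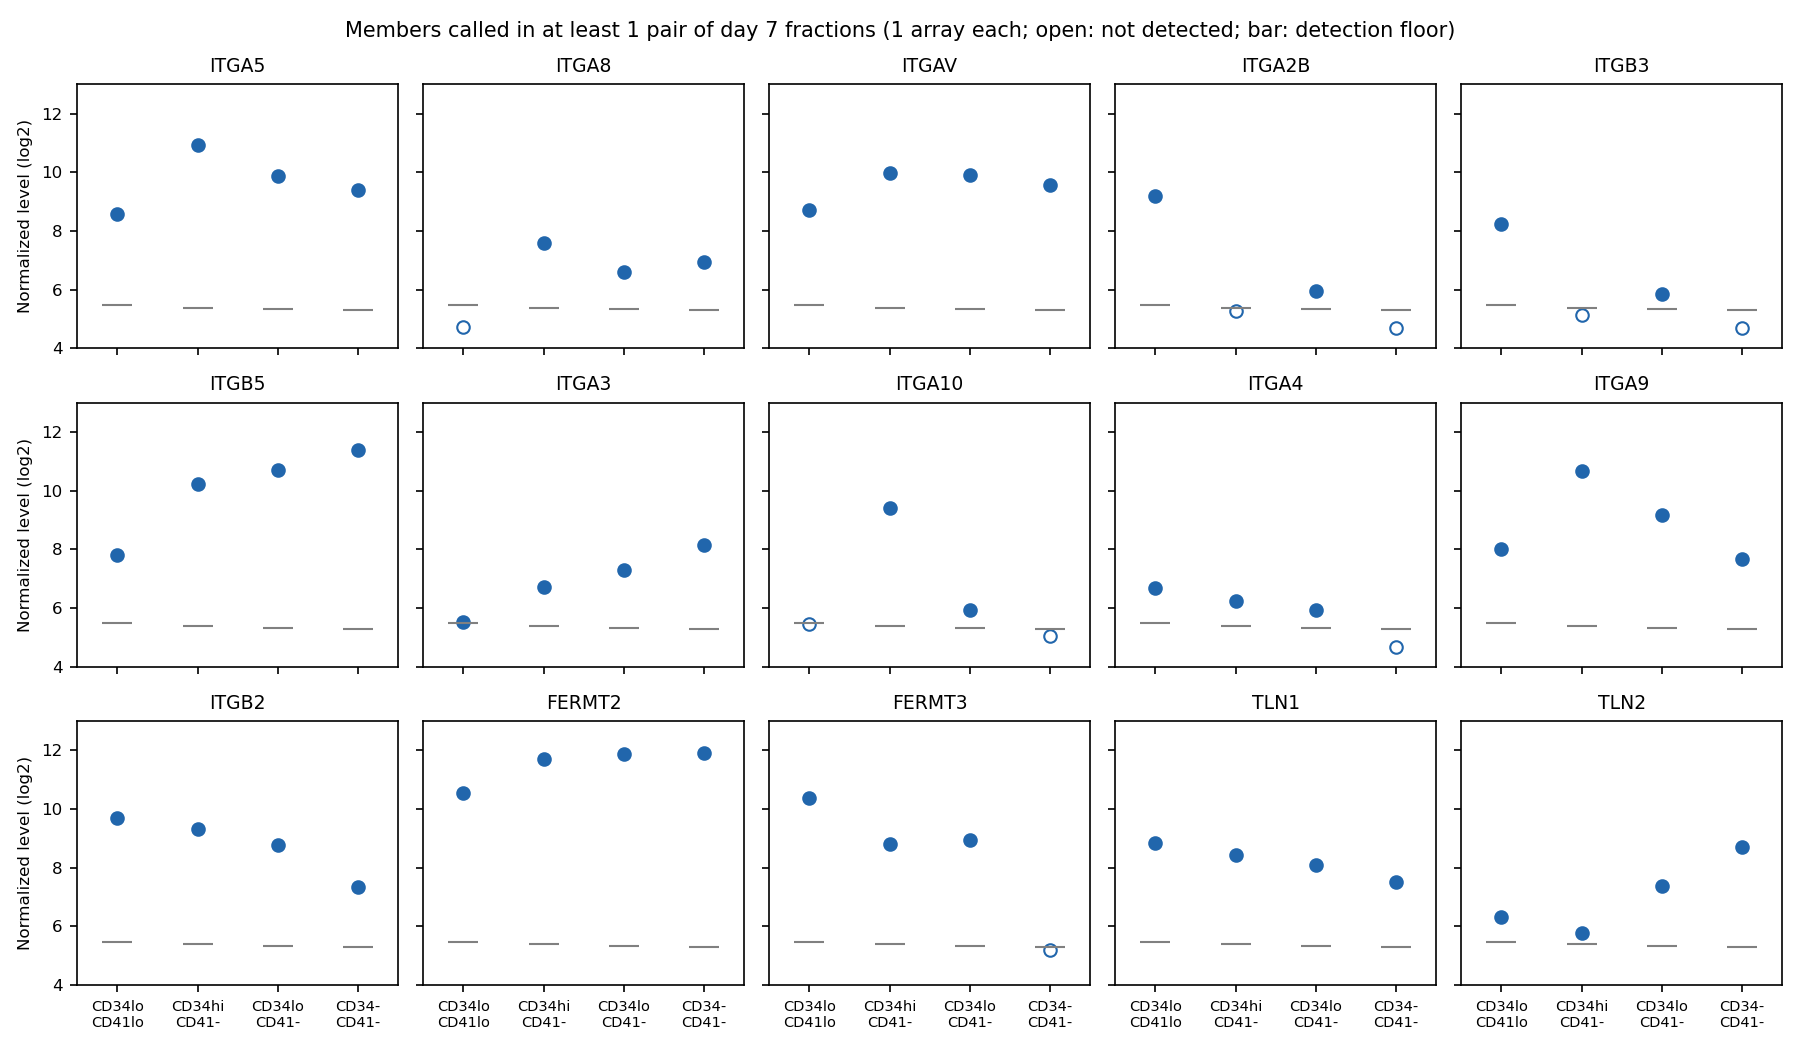
Normalized log2 level (vertical axis) in the 4 fractions sorted on day 7 (horizontal axis), 1 array each, for the 15 members that differed by 2-fold in at least 1 pair. Filled points were detected, open points were not, and the short bars are detection floors. ITGA2B and ITGB3 are highest in CD34lo CD41lo cells, ITGA10 and ITGA9 in CD34hi CD41- cells, and TLN2 in CD34- CD41- cells.

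ITGA2B stood at 9.19 in CD34lo CD41lo cells and at 5.96 in CD34lo CD41- cells, and it was not detected in CD34hi CD41- or CD34- CD41- cells (5.26 and 4.70). The difference of 9.40-fold between the first pair follows the gate. ITGB3, whose protein reaches the platelet surface together with that of ITGA2B, had the same pattern: 8.24 in CD34lo CD41lo cells, 5.86 in CD34lo CD41- cells, and no detection in CD34hi CD41- or CD34- CD41- cells (5.15 and 4.69). ITGB3 was 5.21-fold higher in CD34lo CD41lo than in CD34lo CD41- cells, and at least 7.18-fold higher than in CD34hi CD41- cells. FERMT3, the kindlin that platelets and leukocytes need to activate their integrins, stood at 10.38 in CD34lo CD41lo cells, 8.81 in CD34hi CD41- cells and 8.93 in CD34lo CD41- cells, and it was not detected in CD34- CD41- cells (5.19). CD34lo CD41lo cells were 2.72-fold above CD34lo CD41- cells, 2.96-fold above CD34hi CD41- cells and at least 33.9-fold above CD34- CD41- cells. Unlike ITGA2B and ITGB3, FERMT3 was also detected in both other CD34-bearing fractions, at least 11.5-fold above CD34- CD41- cells in CD34hi CD41- cells and at least 12.5-fold in CD34lo CD41- cells. The further FERMT3 probe gave the same directions, with log2 differences of 1.57 and 1.41 for CD34lo CD41lo cells over CD34lo CD41- and CD34hi CD41- cells, and it too was not detected in CD34- CD41- cells.

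The stretches before the transcription starts of ITGA2B and FERMT3 are shown because both genes were at least 2-fold higher in CD34lo CD41lo than in CD34lo CD41- cells. ITGB3 met the same rule but had no entry in the promoter set used. GATA and ETS factors are known regulators of megakaryocyte and blood genes. The 250 bases before each start are given 5′ to 3′ on the gene's strand, from RefSeq on GRCh38.p14: ITGA2B at chr17:44389650-44389899 on the minus strand and the first of 2 FERMT3 starts at chr11:64206471-64206720 on the plus strand. Capitals mark GATA letters and ETS letters on either strand. The GATA letters searched were AGATAA with the variant AGATAG, and TGATAA with its variant TGATAG. The ETS letters were CGGAAG with the variant AGGAAG.
ITGA2B: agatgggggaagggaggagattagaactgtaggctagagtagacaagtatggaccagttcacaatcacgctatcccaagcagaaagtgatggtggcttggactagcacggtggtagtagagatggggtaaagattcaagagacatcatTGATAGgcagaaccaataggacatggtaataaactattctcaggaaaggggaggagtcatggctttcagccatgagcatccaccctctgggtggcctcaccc
FERMT3: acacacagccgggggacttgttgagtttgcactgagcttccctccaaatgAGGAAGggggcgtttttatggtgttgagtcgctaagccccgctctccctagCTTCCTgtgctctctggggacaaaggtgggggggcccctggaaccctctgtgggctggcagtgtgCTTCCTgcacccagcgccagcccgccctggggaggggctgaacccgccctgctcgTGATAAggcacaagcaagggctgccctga
The capitals in ITGA2B are TGATAG, beginning 102 bases before the start. In FERMT3 they are AGGAAG letters 200, 149 and 84 bases before the start, of which the last 2 are on the reverse strand and read CTTCCT as printed, and TGATAA 29 bases before it. The 50 bases after the start, searched but not printed, held 1 ETS match in ITGA2B and 2 in FERMT3. The other FERMT3 start had ETS letters 115 and 18 bases before it and no GATA letters. Of 35116 such windows of 300 bases from RefSeq, 25.0% held GATA letters, 46.9% held ETS letters and 10.5% held both. A match is a description of letters, and binding was not measured.

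ITGA2B, ITGB3 and FERMT3 were read beside the markers of the cells the gate could hold. Of the 8 megakaryocyte markers with a probe CD34lo CD41lo cells had 6 detected, and these 6 had a summed linear level of 6122, against 2494 in CD34hi CD41- cells, 2640 in CD34lo CD41- cells and 547 in CD34- CD41- cells. Of these 6, 5 were higher and 0 lower in CD34lo CD41lo than in CD34lo CD41- cells, beside 2.68% and 5.68% of all genes. Against CD34hi CD41- cells 3 were higher and 1, GP9, was lower, beside 5.17% and 6.95%. TUBB1 was detected among the fractions in CD34lo CD41lo cells alone (7.12). GP6 and PF4, genes of maturing megakaryocytes and platelets, were not detected in any fraction or on any day. The 7 red cell markers summed to 49860 in CD34lo CD41lo cells, 1522 in CD34hi CD41- cells, 17694 in CD34lo CD41- cells and 10706 in CD34- CD41- cells. The 6 leukocyte and myeloid markers detected in a fraction summed to 3459, 1999, 1308 and 446 in the same order, with PTPRC and MPO not detected in any fraction. The part of these cell types in the levels of ITGA2B, ITGB3, FERMT3 and ITGB2 was not tested.

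ITGB2 stood at 9.69 in CD34lo CD41lo cells, 9.33 in CD34hi CD41- cells, 8.78 in CD34lo CD41- cells and 7.35 in CD34- CD41- cells. It was 5.05-fold higher in CD34lo CD41lo than in CD34- CD41- cells, 3.93-fold higher in CD34hi CD41- and 2.69-fold higher in CD34lo CD41- cells. With this brightest probe no pair among the 3 CD34-bearing fractions reached 2-fold. A further ITGB2 probe differed by 1.02 on the log2 scale for CD34lo CD41lo over CD34lo CD41- cells, just past 2-fold. The brightest probe differed by 0.91 for that pair. TLN1 had the same order, at 8.84 in CD34lo CD41lo cells, 8.44 in CD34hi CD41- cells, 8.09 in CD34lo CD41- cells and 7.52 in CD34- CD41- cells, and the first was 2.50-fold above the last. ITGA4 stood at 6.67 in CD34lo CD41lo cells, 6.26 in CD34hi CD41- cells and 5.92 in CD34lo CD41- cells, and it was not detected in CD34- CD41- cells (4.68). It was at least 2.60-fold higher in CD34lo CD41lo than in CD34- CD41- cells. ITGB7, a partner of ITGA4, was detected in CD34hi CD41- cells alone, at 5.51.

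ITGA10 stood at 9.42 in CD34hi CD41- cells and 5.94 in CD34lo CD41- cells, and it was not detected in CD34lo CD41lo or CD34- CD41- cells (5.46 and 5.06). CD34hi CD41- cells were 11.1-fold above CD34lo CD41- cells and at least 17.5-fold above CD34- CD41- cells, and CD34lo CD41lo cells were at least 15.4-fold below them. ITGA9 stood at 8.0 in CD34lo CD41lo cells, 10.68 in CD34hi CD41- cells, 9.16 in CD34lo CD41- cells and 7.67 in CD34- CD41- cells. CD34hi CD41- cells were 2.87-fold above CD34lo CD41- cells and 8.03-fold above CD34- CD41- cells, and CD34lo CD41lo cells were 6.41-fold below CD34hi CD41- cells. ITGA5 had its peak in the same fraction, at 8.58 in CD34lo CD41lo cells, 10.94 in CD34hi CD41- cells, 9.87 in CD34lo CD41- cells and 9.41 in CD34- CD41- cells. CD34lo CD41lo cells were 5.15-fold below CD34hi CD41- cells and 2.45-fold below CD34lo CD41- cells. The 8 endothelium markers were all detected in CD34hi CD41- cells and summed to 24947 there, against 5396 in CD34lo CD41lo cells, 7571 in CD34lo CD41- cells and 1557 in CD34- CD41- cells, and their part in the levels of ITGA10, ITGA9 and ITGA5 was not tested. Detection of 3 members close to the floor was also limited to few fractions: ITGA1 (5.70) and ITGA11 (5.71) were detected in CD34hi CD41- cells alone, and ITGA2 in CD34hi CD41- cells (6.22) and CD34- CD41- cells (5.30).

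ITGB5 stood at 7.82 in CD34lo CD41lo cells, 10.25 in CD34hi CD41- cells, 10.71 in CD34lo CD41- cells and 11.39 in CD34- CD41- cells. CD34lo CD41lo cells were 7.38-fold below CD34lo CD41- cells, 5.37-fold below CD34hi CD41- cells and 11.9-fold below CD34- CD41- cells, and the 2 ITGB5 probes detected in both fractions gave log2 differences of -2.88 and -2.93 for the first pair. Another probe was not detected in CD34lo CD41lo cells. ITGA3 followed the same order, at 5.52 in CD34lo CD41lo cells, 6.72 in CD34hi CD41- cells, 7.30 in CD34lo CD41- cells and 8.15 in CD34- CD41- cells. CD34lo CD41lo cells were 3.44-fold below CD34lo CD41- cells and 6.19-fold below CD34- CD41- cells for ITGA3. FERMT2 stood at 10.53 in CD34lo CD41lo cells, 11.71 in CD34hi CD41- cells, 11.87 in CD34lo CD41- cells and 11.92 in CD34- CD41- cells. Only the CD34lo CD41lo fraction stood apart for FERMT2, 2.26-fold to 2.62-fold below the other fractions. ITGAV stood at 8.71 in CD34lo CD41lo cells, 9.99 in CD34hi CD41- cells, 9.91 in CD34lo CD41- cells and 9.57 in CD34- CD41- cells, and the first was 2.43-fold below CD34hi CD41- cells and 2.30-fold below CD34lo CD41- cells.

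ITGA8 was not detected in CD34lo CD41lo cells (4.74) and stood at 7.58 in CD34hi CD41- cells, 6.62 in CD34lo CD41- cells and 6.95 in CD34- CD41- cells. CD34lo CD41lo cells were thus at least 4.31-fold below CD34hi CD41- cells, 2.21-fold below CD34lo CD41- cells and 2.79-fold below CD34- CD41- cells. TLN2 stood at 6.34 in CD34lo CD41lo cells, 5.77 in CD34hi CD41- cells, 7.38 in CD34lo CD41- cells and 8.69 in CD34- CD41- cells. TLN2 was 7.58-fold lower in CD34hi CD41- than in CD34- CD41- cells and 5.12-fold lower in CD34lo CD41lo cells, so the 2 talins had their highest levels in opposite fractions. The 6 mesenchyme markers summed to 2009 in CD34lo CD41lo cells, 3789 in CD34hi CD41- cells, 15154 in CD34lo CD41- cells and 19726 in CD34- CD41- cells. The 5 endoderm markers summed to 1258, 1071, 17296 and 24153 and the 2 epithelium markers to 507, 251, 2141 and 5456 in the same order. Their part in the levels of ITGB5, ITGA3, ITGA8 and TLN2 was not tested. The members with no pair at 2-fold included ITGB1 (12.21 to 13.17), ITGAE (8.69 to 8.99), ILK (11.14 to 11.58), VCL (11.41 to 11.63) and PXN (5.72 to 6.38), each detected in all 4 fractions. A further ITGB1 probe differed by -1.03 on the log2 scale for CD34lo CD41lo over CD34hi CD41- cells, just past 2-fold, where the brightest differed by -0.97. ITGA6 was detected in CD34hi CD41- cells alone (5.83), and ITGA7 in CD34lo CD41- cells (5.37) and CD34- CD41- cells (5.79).

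**Figure D4:**
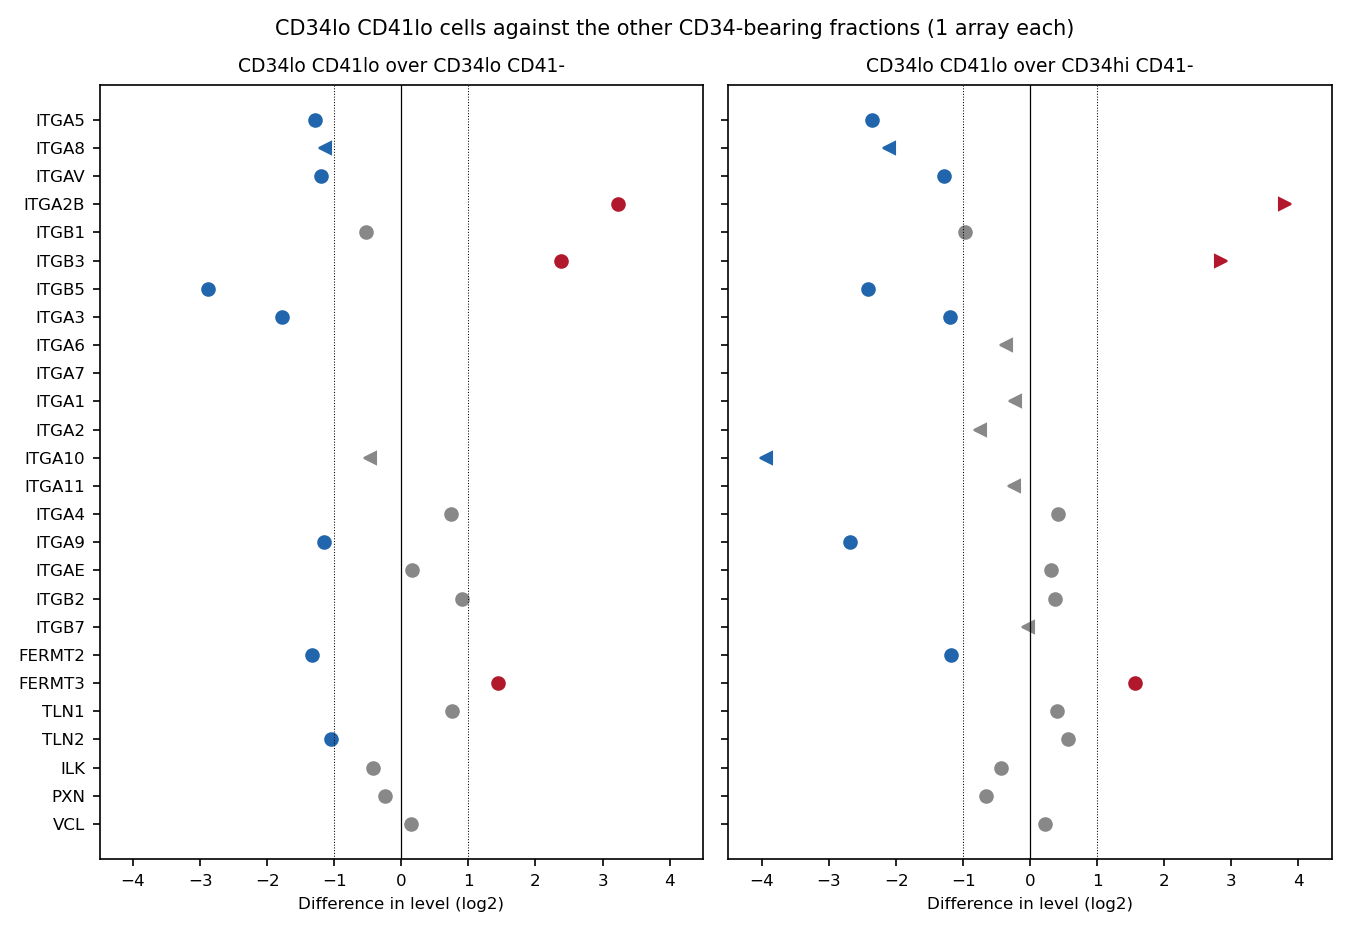
Difference in log2 level (horizontal axis) of CD34lo CD41lo cells over CD34lo CD41- cells (left) and over CD34hi CD41- cells (right), 1 array each, with members down the page. Red members were at least 2-fold higher and blue ones at least 2-fold lower (dotted lines), grey ones were neither, and triangles are bounds because 1 side was not detected. ITGA2B, ITGB3 and FERMT3 lie right of the 2-fold line on both sides, and ITGB5 lies left of it on both.

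Of the other adhesion genes, 30 of 32 were detected in a fraction. CD34lo CD41lo cells had 2 higher and 3 lower than CD34lo CD41- cells, against 2.68% and 5.68% of all genes. The higher ones were RASGRP2, the exchange factor that activates Rap1 in platelets (2.32-fold), and APBB1IP, which joins Rap1 to talin (2.48-fold), and the lower ones were TNS3 (7.81-fold), BCAR1 (2.03-fold) and RAP1GAP (2.01-fold). RASGRP2 stood at 8.21 in CD34lo CD41lo cells, 7.98 in CD34hi CD41- cells and 7.0 in CD34lo CD41- cells, and it was not detected in CD34- CD41- cells (4.56). Against CD34hi CD41- cells 2 were higher, FHL2 (2.41-fold) and RAP1GAP (2.19-fold), and 5 lower, with CAV1 at least 21.6-fold lower, beside 5.17% and 6.95% of all genes. RAP1GAP was thus lower in CD34lo CD41lo cells in one pair and higher in the other. CD34hi CD41- cells had 4 higher and 1 lower than CD34lo CD41- cells, against 3.98% and 4.0% of all genes.

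Of the ligand genes, 26 of 30 were detected in a fraction. CD34lo CD41lo cells had 0 higher and 15 lower than CD34lo CD41- cells, against 2.68% and 5.68% of all genes, with a median difference of -1.26 beside 0.05 over all genes. The largest were FGB (15.6-fold lower), FGA (9.74-fold lower) and tenascin, TNC (8.54-fold lower). Against CD34hi CD41- cells 0 were higher and 6 lower, led by VWF, a platelet and endothelial ligand (15.7-fold lower), COL4A2 (4.52-fold lower) and EDIL3 (3.93-fold lower), beside 5.17% and 6.95% of all genes. Against CD34- CD41- cells 3 were higher (ICAM2, ADAM15 and ICAM3) and 17 lower, beside 8.26% and 11.1% of all genes. ICAM2, a ligand of the leukocyte integrins, stood at 10.89 in CD34lo CD41lo cells, 11.31 in CD34hi CD41- cells, 10.76 in CD34lo CD41- cells and 6.48 in CD34- CD41- cells.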

How the data were processed

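Total RNA (Roche kit) had been turned into biotin cRNA with an Ambion MessageAmp kit, per the labels. GenomeStudio 2010.2 and lumi are named, without their roles, in the submitters' processing notes. The deposited values were summary intensities of 47231 probes on 13 arrays, not normalized between arrays and as low as -28.8. Array medians of the deposited intensities ran from 8.7 to 13.4. The detection values deposited by the authors were fractions, and 1 minus that fraction was used as the detection p-value. The log2 values deposited by the authors served as an alternative scale, made by a transformation that the labels do not state. All value columns were used and 1 probe with missing values was dropped. Columns were matched to samples by name and checked against the deposited log2 values.

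Intensities were normalized over all arrays with neqc (limma 3.58.1, R 4.3.3, offset 16). A probe was kept with a detection p below 0.01 on at least 1 array of the experiment, the brightest probe standing for a gene. Symbols were updated through RefSeq. In limma, a natural spline over days was fitted, of 3 degrees of freedom (5 residual and 3.98 prior degrees of freedom), with Benjamini-Hochberg adjustment over 17657 genes. The fit was tested on simulated data, and alternatives changed the scale, background correction, spline, variance prior, filter, probe per gene, fold and days kept. A p-value sets a trend or fitted change against the departure of single days from the curve. It does not measure the spread between cultures, since nothing says that cultures were repeated. Days and fractions were handled as separate experiments and were not compared with each other. Every member was accounted for. Those called over days were described on every day, and those called between fractions in every fraction. ITGA2 was given by a range on the days without detection. The members and gene lists were chosen with earlier results of these data known, and genes outside the members were named from the largest calls of each list.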

Additional observations from a re-analysis of the deposited data

How the results depend on the processing

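Over the alternatives run, no called change of a member reversed. Counting each alternative for each called change over days, 277 kept their side of the threshold and 29 lost it, and of the uncalled changes 754 kept theirs and 17 gained a call. Between fractions 192 kept 2-fold, and the 4 that lost it did so without background correction: ITGA3 in CD34lo CD41lo over CD34hi CD41- cells (-0.84), ITGA4 in CD34lo CD41lo over CD34- CD41- cells (0.94), and ITGA8 and TLN2 in CD34lo CD41lo over CD34lo CD41- cells (-0.79 and -0.83). Over days, ITGA5 and FERMT1 from day 0 to 4 and ITGA9 from day 4 to 8 lost their calls with the submitters' values and with no detection filter, ITGA8 from day 0 to 4 with no filter, ITGA6 and ITGA9 from day 4 to 8 and ITGA2 from day 0 to 8 with a spline of 2 degrees of freedom, and PXN from day 0 to 4 and ITGA2 from day 0 to 8 without background correction. The count of members that fell from day 4 to 8, 1 in the fit reported, was 0 with the submitters' normalized values, that spline, no detection filter or any one of days 2 to 7 left out, and 2 with the mean of all probes. Over all genes the fit reported called 466 lower in that interval, and these alternatives called between 288 and 578. The count that rose from day 4 to 8 was 4 with that spline and without day 2, beside 907 and 897 of 17657 genes. The count that rose from day 0 to 4 was 2 with no detection filter and 1 without day 3, beside 896 of 34114 and 856 of 17657 genes. With the submitters' values 5 members were higher in CD34hi CD41- over CD34lo CD41- cells and 6 in CD34lo CD41- over CD34- CD41- cells. At 4-fold the lower members numbered 1 in CD34lo CD41lo over CD34lo CD41-, 5 over CD34hi CD41- and 3 over CD34- CD41- cells. At that fold CD34hi CD41- cells had 1 higher and 0 lower than CD34lo CD41- cells and 3 higher and 1 lower than CD34- CD41- cells, and CD34lo CD41- cells had 1 higher and 0 lower than CD34- CD41- cells. Shares of all genes between fractions were not counted at 4-fold or with the submitters' values. The cause of these shifts was not tested. No paired analysis was possible because every day and every fraction is a single array, with no replicate number in the labels. Members within about 1 log2 unit of the detection floor, among them ITGA1, ITGA7, ITGA11, ITGB4 and ITGB7, have changes limited by signal over background. The same limit touches called members that were near or below the floor on several days, among them ITGA2, ITGA6 and PXN (5.79 to 6.21 on days 3 to 8).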
